A study of Homo sapiens with 28 samples.

Results

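The H3K27ac state of 6 genes that encode histone acetyltransferases or their anchoring subunits was read in SW872 liposarcoma cells. The genes are YEATS2, ZZZ3, KAT2A, KAT2B, EP300 and CREBBP. They were chosen by name, not by their signal, although with earlier results of these data known. A peak was counted at a promoter when its summit lay within 2 kb of the gene's start on GRCh37/hg19, and the surroundings were read to 50 kb on either side. All 6 genes had a promoter peak in at least 1 of 14 peak lists. The lists together held 138849 merged regions, against which the 6 promoters are set below.

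SW872 is an established human liposarcoma cell line. It had been transduced by retrovirus with an empty vector or with TAZ4SA, YAP5SA, TAZ-CAMTA1, YAP-TFE3, CAMTA1 or TFE3 carrying a Flag tag, and each of the 7 labels has 2 H3K27ac ChIP-seq libraries from biological duplicates. The fusion oncoproteins of epithelioid hemangioendothelioma are TAZ-CAMTA1 and YAP-TFE3, TAZ4SA and YAP5SA are mutants of TAZ and YAP that escape Hippo pathway inhibition, and CAMTA1 and TFE3 are the unfused C-terminal partners. The stable lines were G418-selected pools, not single clones. Per the labels, cells reached 90% confluence and were collected 48 hr later, apart from the CAMTA1 cells, which were taken while sub-confluent. By that account density and construct cannot be told apart in the CAMTA1 group. The paper's ChIP-seq methods instead give 90% confluence for CAMTA1 cells too. The labels name H3K27ac as the antibody target, whereas their protocol text describes a pull-down of Flag-tagged proteins. The paper's methods list an antibody to acetylated H3K27 beside the one to Flag.

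The names inside the peak lists did not match the labels. In 14 of 14 lists the peak names carried another construct, and both lists of a label carried the same one in 7 of 7 labels. The label empty vector went with CAMTA1 in the peak names, TAZ4SA with empty vector, TAZ-CAMTA1 with TAZ4SA and CAMTA1 with TAZ-CAMTA1. Likewise YAP5SA went with TFE3, YAP-TFE3 with YAP5SA and TFE3 with YAP-TFE3. Libraries are called by their labels here, and each comparison of constructs is also given for the construct in the peak names. The lists ran from 5721 peaks in replicate 1 of the label TFE3 to 102009 in replicate 1 of the label TAZ4SA. The other 12 lists held between 21748 and 98992 peaks, and the list of 98992 was also labelled TAZ4SA.

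H3K27ac marks active promoters and enhancers and is written mainly by the paralogous acetyltransferases p300 (EP300) and CBP (CREBBP). The Ada2a-containing (ATAC) complex is a separate acetyltransferase assembly, built around GCN5 (KAT2A) or its paralogue PCAF (KAT2B) as the catalytic subunit. Among its anchoring subunits, YEATS2 carries a reader module for acetylated lysines, and ZZZ3 has a zinc finger that contacts histone H3. A peak at one of these genes shows that the gene's own promoter carried the mark, not that the encoded protein was active.

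Promoter sequences are shown for both paralogous pairs, because the members of each pair were marked very differently in the peak lists. They run from 250 bases before to 50 bases after the annotated start and come from RefSeq on GRCh38.p14, a later build than that of the peaks, so they were not placed on the peak coordinates. Capitals mark GC boxes (GGGCGG on either strand).
EP300, chr22:41092342-41092641, plus strand: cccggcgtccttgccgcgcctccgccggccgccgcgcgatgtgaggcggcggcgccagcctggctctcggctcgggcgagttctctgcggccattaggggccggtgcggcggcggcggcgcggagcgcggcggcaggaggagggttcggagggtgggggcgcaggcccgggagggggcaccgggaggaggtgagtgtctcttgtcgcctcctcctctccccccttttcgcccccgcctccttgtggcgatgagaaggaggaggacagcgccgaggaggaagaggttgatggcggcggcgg
CREBBP, upstream window, chr16:3880664-3880963, minus strand: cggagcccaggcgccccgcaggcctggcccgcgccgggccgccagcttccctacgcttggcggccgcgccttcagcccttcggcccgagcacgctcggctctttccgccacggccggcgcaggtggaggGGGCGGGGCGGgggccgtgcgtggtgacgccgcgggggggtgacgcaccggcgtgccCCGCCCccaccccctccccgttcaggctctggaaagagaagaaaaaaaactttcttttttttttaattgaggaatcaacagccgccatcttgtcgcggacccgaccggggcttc
CREBBP, downstream window, chr16:3880071-3880370, minus strand: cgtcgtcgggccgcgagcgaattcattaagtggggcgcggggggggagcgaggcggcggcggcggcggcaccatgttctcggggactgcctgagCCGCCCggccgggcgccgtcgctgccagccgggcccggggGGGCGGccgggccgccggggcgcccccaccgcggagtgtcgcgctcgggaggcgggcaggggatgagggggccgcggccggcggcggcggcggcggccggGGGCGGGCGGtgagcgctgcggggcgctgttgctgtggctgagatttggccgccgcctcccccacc
KAT2A, chr17:42121318-42121617, minus strand: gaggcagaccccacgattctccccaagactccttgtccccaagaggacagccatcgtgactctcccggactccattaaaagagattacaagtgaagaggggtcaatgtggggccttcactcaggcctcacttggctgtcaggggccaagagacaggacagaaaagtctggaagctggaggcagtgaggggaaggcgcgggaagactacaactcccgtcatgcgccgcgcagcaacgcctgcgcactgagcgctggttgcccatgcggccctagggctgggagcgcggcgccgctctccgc
KAT2B, chr3:20040196-20040495, plus strand: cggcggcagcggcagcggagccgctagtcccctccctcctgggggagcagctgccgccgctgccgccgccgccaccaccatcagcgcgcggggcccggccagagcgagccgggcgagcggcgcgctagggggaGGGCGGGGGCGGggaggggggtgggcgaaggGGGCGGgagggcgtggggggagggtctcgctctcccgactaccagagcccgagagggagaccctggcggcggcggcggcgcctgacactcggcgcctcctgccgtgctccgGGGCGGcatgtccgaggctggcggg

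The EP300 window was 75.3% G or C with 40 CpG dinucleotides and no GC box. The CREBBP windows, whose starts lie 593 bp apart, were 70.3% and 82.0% G or C with 3 and 4 GC boxes. KAT2B had 80.3% G or C, 40 CpGs and 4 GC boxes, whereas KAT2A had 62.0%, 18 CpGs and no GC box. Across 35116 promoters of the same table the median was 58.7% G or C with 14 CpGs, and 45.0% held a GC box. KAT2B, the gene with the fewest promoter peaks below, therefore had a more CpG-rich start than KAT2A.

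None of these 5 windows held the TEAD motif GGAATG, the AP-1 motif TGANTCA or the E-box CACGTG, on either strand. These letters occur in 14.03%, 7.71% and 7.26% of all promoters of the table. The absence of the letters from 300 bases is a description of these windows only. ZZZ3 also had 2 windows, of 74.3% and 47.7% G or C, the first with 1 GC box and the second with a TATAAA.

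EP300 had the most strongly ranked promoter peak of the 6 genes. Rank counts from 1 for the peak with the smallest p of its list, so a low rank is a strong peak. EP300 ranked between 494 and 1480 with a median of 684, and it was within the first 1000 peaks in 11 of 14 lists. ZZZ3 followed with a median rank of 3270, YEATS2 with 7195, KAT2A with 12982 and CREBBP with 15109. KAT2B, where present, had a median rank of 21886.

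The order between neighbours was firm at the top and loose at the bottom. EP300 ranked ahead of ZZZ3 in 13 of 13 lists that held both peaks, and ZZZ3 ahead of YEATS2 in 11 of 13. YEATS2 ranked ahead of KAT2A in 9 of 12 lists, whereas KAT2A was ahead of CREBBP in 7 of 11 with 1 tie, so the latter neighbours were not ordered across lists. CREBBP was ahead of KAT2B in 2 of the 3 lists with both.

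**Figure D1:**
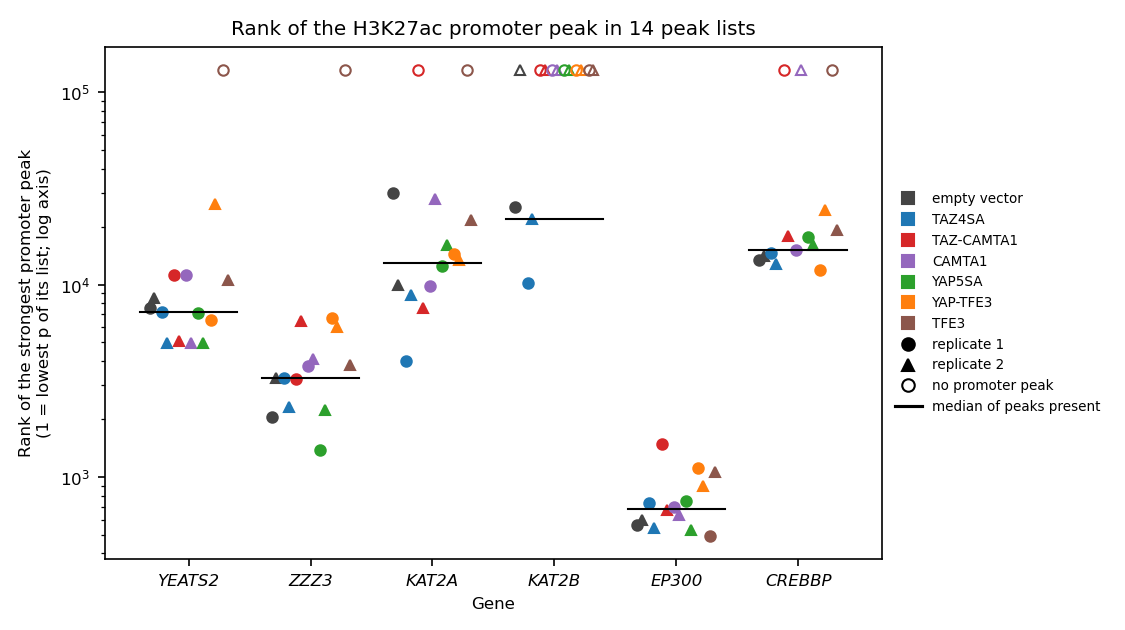
Rank of the strongest promoter peak (log axis, 1 is the strongest peak of a list) for each gene in the 14 lists, coloured by label, with circles for replicate 1, triangles for replicate 2 and open symbols at the top where no peak was present. The line is the median of the peaks present. All 14 EP300 values lie between 494 and 1480, and KAT2B has 3 filled symbols.

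Presence separated the genes in the same way. EP300 had a promoter peak in 14 of 14 lists, as did 2.93% of all merged regions. YEATS2 and ZZZ3 had one in 13 lists each, where 7.67% of merged regions had a peak in at least 13. KAT2A had a promoter peak in 12 lists and CREBBP in 11, and 11.6% of merged regions reached at least 11. Such shares were not measured among promoters alone, so they do not show whether this presence is unusual for a promoter. KAT2B had a promoter peak in 3 lists, replicate 1 of the label empty vector and both replicates of TAZ4SA.

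Apart from KAT2B, every missing promoter peak fell in 3 lists. In replicate 1 of TFE3, the list of 5721 peaks, EP300 was the only gene of the 6 with a promoter peak, and KAT2A had a single distal peak. Replicate 1 of TAZ-CAMTA1, with 21748 peaks, lacked promoter peaks at KAT2A, KAT2B and CREBBP. Replicate 2 of CAMTA1, with 31280 peaks, lacked those at KAT2B and CREBBP. The first 2 of these were the shortest lists, and the part of list length in the absence was not tested. When each list was cut to its 5721 strongest peaks, EP300 stayed in 14 lists and ZZZ3 in 10, YEATS2 was left in 4 and KAT2A in 1, and KAT2B and CREBBP in 0.

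YEATS2, the scaffold of ATAC, starts at chr3:183415606 on the plus strand. Its promoter peak had a fold enrichment over the local background between 3.49 and 20.1 with a median of 8.26, and a width between 676 and 2673 bp with a median of 1538 bp. The summit lay just inside the gene, 91 to 464 bp past the start, and the interval covered the start in 13 of 13 lists. The summit held 15 to 79 fragments, over a background of 1.74 to 5.53. The weakest rank was 26355, in replicate 2 of YAP-TFE3, whereas the other 12 lists lay between 4948 and 11237. That library also had the narrowest YEATS2 peak and 16 fragments at its summit.

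ZZZ3, the H3-tail-binding subunit, starts at chr1:78148343 on the minus strand and had the widest promoter peaks of the set by median, although in replicate 1 of YAP5SA the EP300 peak was wider (3714 against 3566 bp). The ZZZ3 width ran from 1554 bp in replicate 1 of TAZ-CAMTA1 to 6335 bp in replicate 2 of TAZ4SA, with a median of 3333 bp. At the median list, 5.97% of all peaks were at least as wide as that of ZZZ3. Fold enrichment ran from 7.88 to 31.2 with a median of 11.7, and the summit held 26 to 98 fragments. The summit lay upstream in all 13 lists, at offsets of -1122 to -134 bp from the start, and the interval covered the start in 13 lists.

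KAT2A, the GCN5 acetyltransferase of ATAC, starts at chr17:40273382 on the minus strand. Its promoter peak was narrow in 10 lists, between 271 and 602 bp, and wide in both libraries labelled TAZ4SA, at 4866 bp in replicate 1 and 2692 bp in replicate 2. The summit was at a fixed place, 125 to 332 bp inside the gene, and the interval covered the start in 4 of 12 lists. Fold enrichment ran from 3.23 in replicate 1 of the label empty vector to 28.6 in replicate 1 of TAZ4SA, with a median of 6.27. The summit fragments followed, with 10 in replicate 2 of CAMTA1, a median of 25.5 and 90 in replicate 1 of TAZ4SA.

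Rank at KAT2A varied most of the members, with an SD of log2 rank of 0.82 over the lists with a peak. It was 3986 in replicate 1 of TAZ4SA, 7537 in replicate 2 of TAZ-CAMTA1 and 8871 in replicate 2 of TAZ4SA. At the other end it was 21660 in replicate 2 of TFE3, 27862 in replicate 2 of CAMTA1 and 30049 in replicate 1 of the label empty vector. Replicates were far apart for some labels, with 9913 in replicate 2 of the empty vector label and 9885 in replicate 1 of CAMTA1. They were close for YAP-TFE3, at 14349 and 13432, and for YAP5SA, at 12532 and 16149.

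KAT2B, which encodes PCAF, starts at chr3:20081524 on the plus strand and differed from its paralogue. The 3 promoter peaks had summits between 7 and 100 bp past the start, and each interval covered the start. In the empty vector label the peak was 399 bp wide with 12 summit fragments and a 4.18-fold enrichment. In TAZ4SA the widths were 2327 and 2033 bp, with 49 and 16 summit fragments and enrichments of 15.7 and 7.02. The remaining 11 lists had no interval reaching within 2 kb of the KAT2B start. Presence in a list requires a q under 0.05, so weaker acetylation was not detectable here, and absence of the mark is not shown.

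The width of the TAZ4SA peaks was set against all regions. Both libraries labelled TAZ4SA had wider promoter peaks than every other list at 4 of the 6 genes, YEATS2, ZZZ3, KAT2A and KAT2B, the last against a single other list with a peak. Of 22949 regions with a peak in at least 7 lists and in both TAZ4SA lists, 56.9% showed the same. The margin at KAT2A was less common. The narrower TAZ4SA peak at KAT2A was 4.47 times as wide as the widest other peak, where the median region had 1.08 times and 0.967% of regions had a margin at least as large. This gene and this comparison were picked after the widths had been seen, and the TAZ4SA lists were also the longest. The peak names call these lists empty vector.

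**Figure D2:**
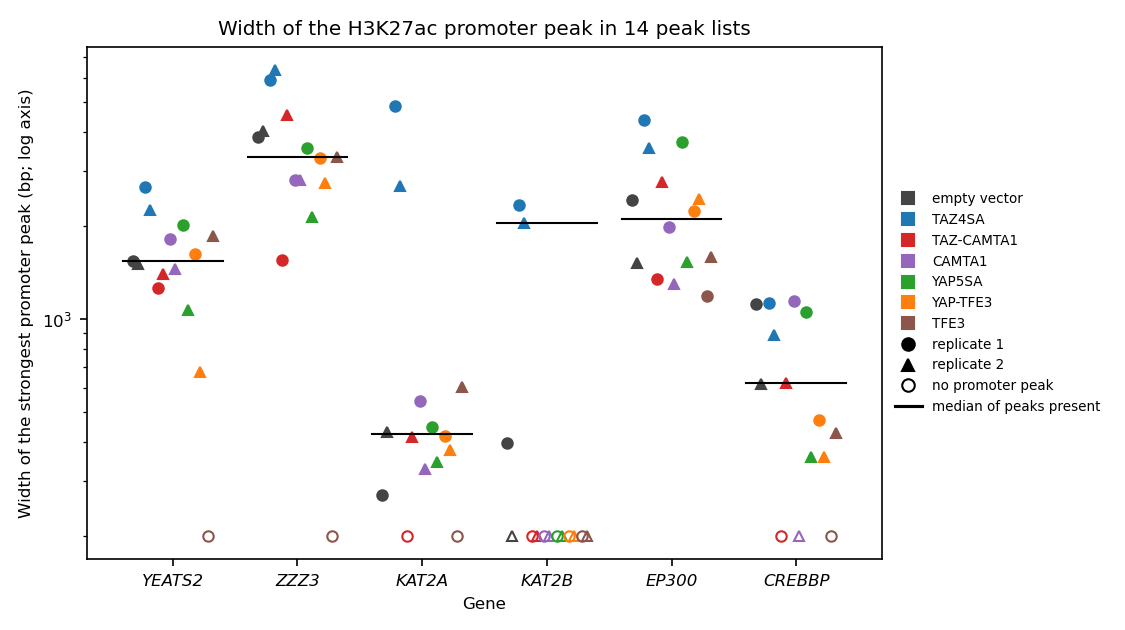
Width in bp (log axis) of the strongest promoter peak for each gene in the 14 lists, with the same colours and symbols as the plot of ranks and open symbols at the bottom where no peak was present. KAT2A lies between 271 and 602 bp in 10 lists, and at 4866 and 2692 bp in the libraries labelled TAZ4SA, which the peak names call empty vector.

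EP300, which encodes p300, starts at chr22:41488614 on the plus strand and had a broad, highly enriched promoter. Fold enrichment ran from 9.06 in replicate 1 of TFE3 to 48.5 in replicate 1 of TAZ4SA, with a median of 19.5. The summit held 27 to 153 fragments with a median of 79, and the width ran from 1190 to 4385 bp with a median of 2103 bp. The strongest summit lay upstream in every list, at offsets of -704 to -509 bp with a median of -653 bp. The interval covered the start in 14 of 14 lists.

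The EP300 promoter was made of more than 1 peak in 8 lists. A separate upstream peak had its summit between -1368 and -1310 bp in 7 of these lists, for example at rank 7426 and 353 bp wide in replicate 1 of the empty vector label and at rank 5618 and 765 bp wide in replicate 1 of CAMTA1. In 5 lists, among them replicate 1 of TAZ4SA and both libraries of YAP-TFE3, a single interval spanned the same stretch. Peaks past the start were weak, at rank 45211 in replicate 2 of the empty vector label and 44264 in replicate 1 of YAP-TFE3.

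The EP300 rank was also steady. Its SD of log2 rank over the 14 lists was 0.47, against a median of 0.81 over the 4062 regions with a peak in all lists, and 3.57% of these regions had a smaller SD. By geometric mean rank EP300 was at 729 and the median region at 2833, and 14.1% of the 4062 regions ranked better. As a share of its list, however, the EP300 rank ran from 0.547% in replicate 2 of TAZ4SA to 8.63% in replicate 1 of TFE3.

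CREBBP, which encodes CBP, starts at chr16:3930121 on the minus strand and was much weaker than its paralogue. Rank ran from 11923 in replicate 1 of YAP-TFE3 to 24445 in replicate 2 of the same label. Fold enrichment lay between 4.32 and 11.6 with a median of 6.15, width between 359 and 1144 bp with a median of 621 bp, and summit fragments between 12 and 34 with a median of 19. EP300 ranked within the first 1480 peaks in every list, so the ranges of the paralogues did not overlap.

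The CREBBP summit lay well upstream in all 11 lists, at offsets of -1005 to -885 bp, and its interval ended before the start. Only 3 lists had an interval over the start itself, replicate 2 of the empty vector label and both of TAZ4SA, and in each it was a separate, weaker peak. These ranked between 27283 and 28099, with summits 155 to 329 bp past the start. RefSeq places a further CREBBP start 593 bp upstream of the other, and which of them the hg19 position used here corresponds to was not established across builds.

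**Figure D3:**
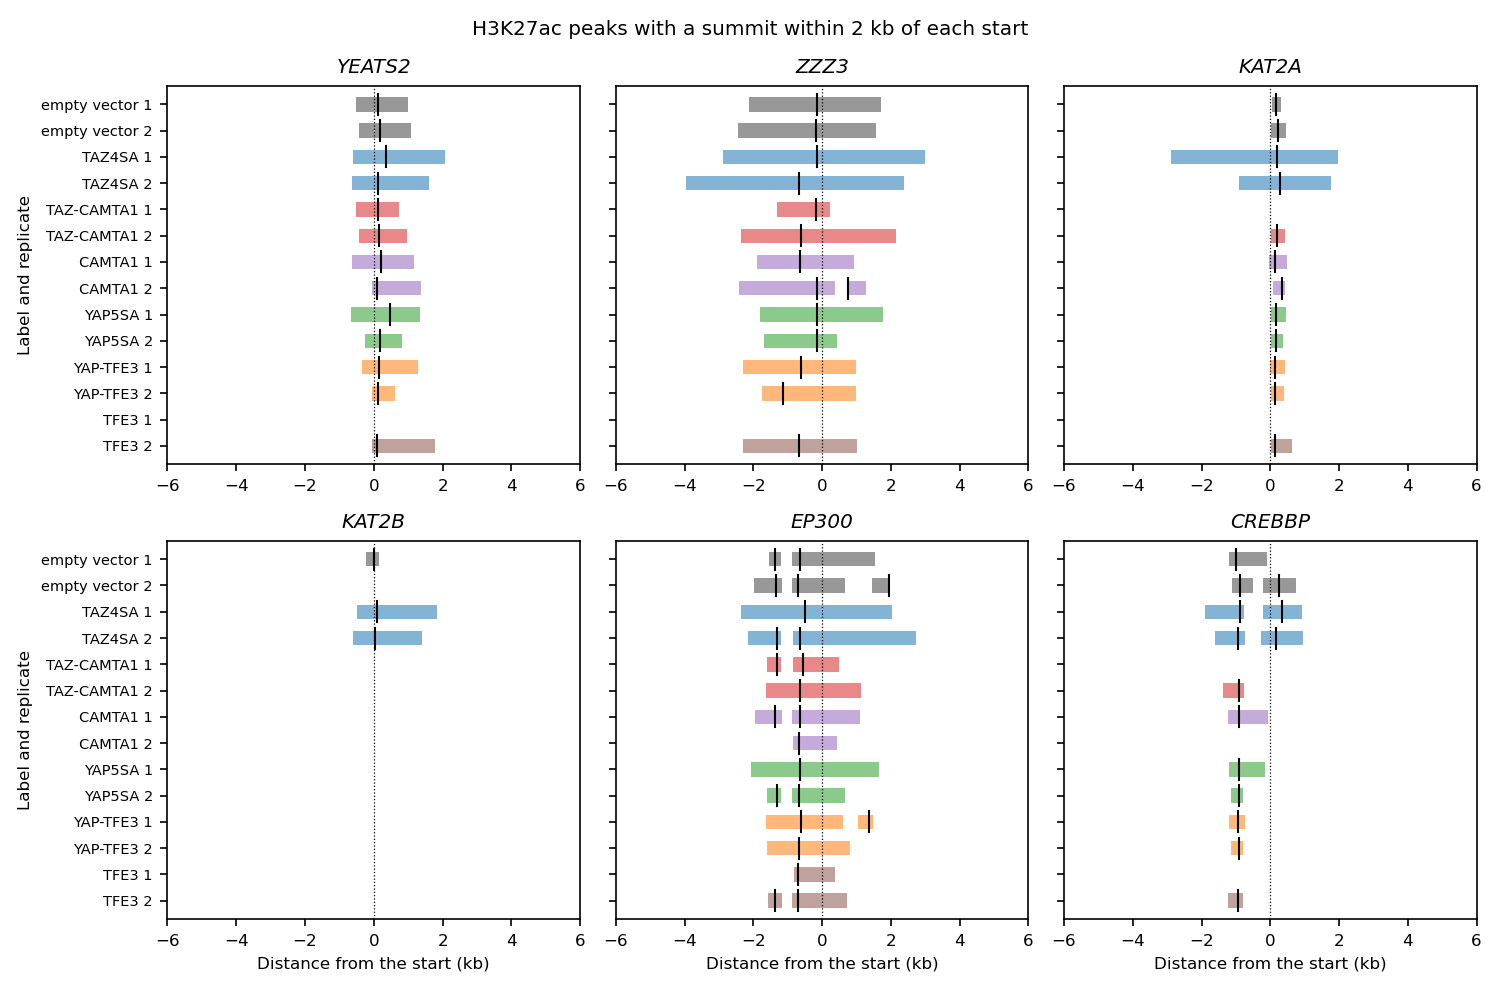
Intervals (bars) and summits (black ticks) of all peaks with a summit within 2 kb of each start, by distance from the start in kb with positive values in the direction of transcription, 1 row per library. YEATS2 and KAT2A summits lie past the start, while the strongest EP300 and CREBBP summits lie before it, with weaker peaks past the start in 2 EP300 and 3 CREBBP rows and separate EP300 peaks near -1368 to -1310 bp in 7 lists.

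Distal peaks, with a summit 2 to 50 kb from the start, were few and mostly not shared. KAT2A had 21 merged distal regions, KAT2B 13, ZZZ3 12, EP300 12, YEATS2 7 and CREBBP 4. Of these, 15 at KAT2A, 8 at KAT2B, 9 at ZZZ3, 9 at EP300, 5 at YEATS2 and 4 at CREBBP were in 1 list, as were 55.4% of all merged regions. In TAZ4SA-labelled lists alone were 16 at KAT2A, 6 at KAT2B, 4 at ZZZ3, 3 at EP300, 3 at YEATS2 and 4 at CREBBP, and of all merged regions 50% (69474 of 138849) were in those long lists alone, so a predominance of TAZ4SA regions is not particular to these genes. The regions seen in at least 7 of 14 lists numbered 7 in all, and 16.8% of all merged regions are that frequent. These shares are not measured alike, since distal regions join only peaks with distal summits, whereas the merged regions join every peak. At EP300, for example, chr22:41490596-41490947 was in replicate 2 of TAZ-CAMTA1 alone but lies under the promoter peak of replicate 2 of TAZ4SA.

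YEATS2 had 1 frequent distal region, chr3:183382295-183384682, in 10 lists with a median summit offset of -32.3 kb. It was missing from both TAZ-CAMTA1 libraries, from replicate 2 of YAP-TFE3 and from replicate 1 of TFE3. The gene on that side of YEATS2 in RefSeq is KLHL24. ZZZ3 had 1, chr1:78137275-78138822, in 10 lists at a median of 10.35 kb past the start. It was absent in replicate 1 of TAZ-CAMTA1, replicate 2 of CAMTA1, replicate 2 of YAP5SA and replicate 1 of TFE3.

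KAT2A had 3 frequent distal regions, more than any other member. The most frequent, chr17:40302701-40308093, was in 13 lists at a median of -33.5 kb and up to 5308 bp wide, and it was missing from replicate 1 of TFE3. Next, chr17:40261756-40267239 was in 12 lists at 8.96 kb past the start and missing from both TAZ-CAMTA1 libraries. The least frequent, chr17:40282922-40287018, was in 7 lists around -11.6 kb. Upstream of KAT2A, RefSeq lists HSPB9 and RAB5C, and downstream DHX58. KAT2A was thus the only member besides EP300 with a peak within 50 kb in 14 of 14 lists, in 2 of them without a promoter peak.

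KAT2B had all 13 of its distal regions past the start. One of them, chr3:20094438-20100861, was in 11 lists with summits 13.1 to 19.2 kb past the start, more lists than the promoter itself. It was absent in replicate 1 of TAZ-CAMTA1, replicate 2 of CAMTA1 and replicate 1 of TFE3. Further regions at 3.88, 27.6 and 33.2 kb were in 6, 5 and 5 lists. Of the 11 lists with any KAT2B peak within 50 kb, 8 had no promoter peak.

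EP300 had 1 frequent distal region, chr22:41443980-41445781, in 10 lists with a median summit offset of -43.4 kb, on the side of RBX1. It was absent in replicate 1 of the empty vector label, replicate 1 of TAZ-CAMTA1, replicate 2 of YAP-TFE3 and replicate 1 of TFE3. CREBBP had no distal region in more than 1 list. Neighbouring genes are named by RefSeq gene order alone, and whether a region lies inside one of them was not determined on hg19.

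**Figure D4:**
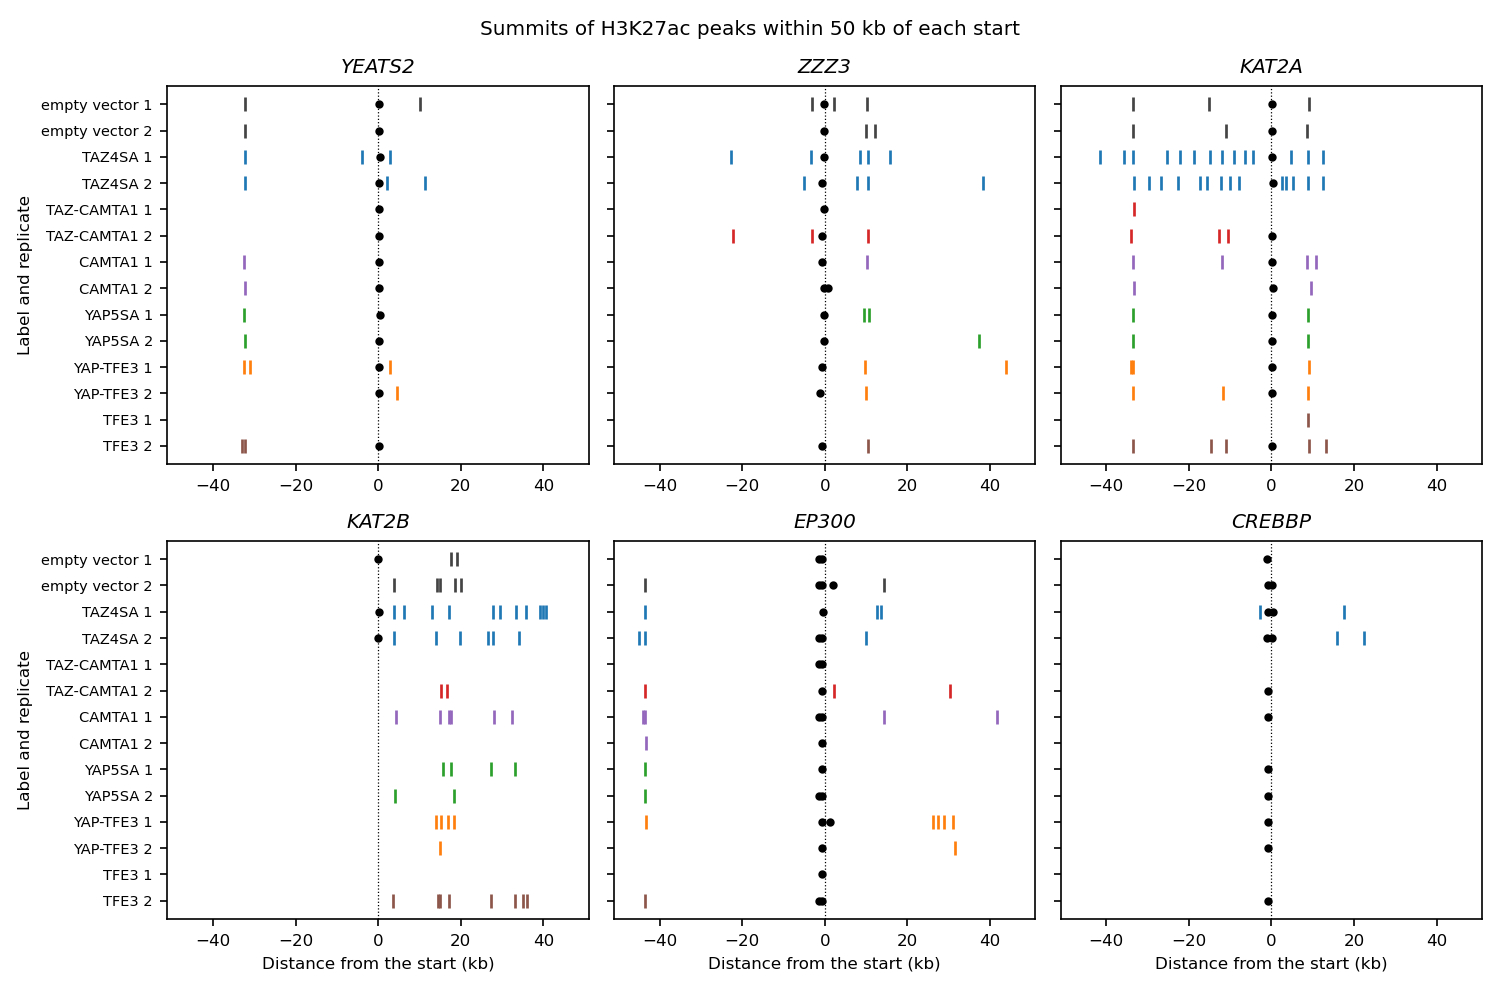
Summits of peaks within 50 kb of each start, by distance in kb with positive values in the direction of transcription and 1 row per library, with promoter summits as black dots and distal summits as coloured ticks. KAT2B ticks all lie past the start, a column of KAT2A ticks stands near -33.5 kb in 13 lists, and CREBBP has ticks in the TAZ4SA rows alone.

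Whether a fusion changed the promoter peaks of these genes relative to the active form of its N-terminal partner was asked by setting the 4 libraries labelled TAZ-CAMTA1 or YAP-TFE3 against the 4 labelled TAZ4SA or YAP5SA. Of the 5 genes tested, 0 passed an unadjusted exact permutation p of 0.05, where 21.9% of all 23325 features did. KAT2B had peaks in too few lists to be tested. Here and in the comparisons below, each library was permuted as an independent unit, although both libraries of a label carry the same construct. The p-values therefore refer to libraries, not to the smaller number of separate constructs. A list without a peak was given a rank equal to its length plus 1, so a missing peak in a short list counts for less than one in a long list.

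ZZZ3 differed most. Its ranks were 3209 and 6443 in TAZ-CAMTA1 and 6668 and 6024 in YAP-TFE3, against 3270 and 2301 in TAZ4SA and 1382 and 2221 in YAP5SA. The groups overlapped through replicate 1 of TAZ-CAMTA1 alone. The mean log2 rank was 12.39 ± 0.50 (SD, n = 4 libraries) for the fusions and 11.10 ± 0.51 (SD, n = 4 libraries) for the others. The difference of 1.29 on the log2 scale, a weaker rank in the fusions, had an exact two-sided permutation p of 0.0571, and a Benjamini-Hochberg adjusted p over all features of 0.187. The smallest p that 4 against 4 libraries can give is 0.0286.

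The ZZZ3 comparison turned on 1 library, the measure and the naming. Without replicate 1 of TAZ-CAMTA1 the difference was 1.54 with an exact permutation p of 0.0286, and 21.1% of features then passed. With the rank as a share of the list it was 1.79, and by minus log2 fold enrichment, where a positive value is again a weaker peak in the fusions, it was 1.05, both with an exact permutation p of 0.0286, and 10.8% and 7.68% of features passed in those comparisons. With the summit required within 1 kb it was 1.97, with an exact permutation p of 0.0571. With the construct in the peak names it was -0.32, in the other direction, with an exact permutation p of 0.400. That grouping sets the lists labelled CAMTA1 and TFE3 against those labelled TAZ-CAMTA1 and YAP-TFE3. It is the next comparison below with the sign reversed, not a separate test.

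EP300 was also ranked weaker in the fusion labels, by 0.67 on the log2 scale (exact permutation p = 0.0857, adjusted p = 0.231, 4 against 4 libraries). Its ranks were 1480, 671, 1119 and 897 in the fusions against 731, 541, 752 and 528 in the others, and the groups overlapped. The lists differ in length. As a share of the list these ranks were 6.81%, 1.39%, 1.95% and 2.26% against 0.717%, 0.547%, 2.42% and 1.75%. Without replicate 2 of TAZ-CAMTA1, the library at 671, the difference was 0.86 with an exact permutation p of 0.0286, where 20.7% of features passed. YEATS2, KAT2A and CREBBP differed by 0.74, 0.54 and 0.27, with exact permutation p-values of 0.286, 0.429 and 0.314. Single libraries moved these values. YEATS2 was at 0.28 without replicate 2 of YAP-TFE3 and 1.07 without replicate 2 of TAZ-CAMTA1. KAT2A was at 0.13 without replicate 1 of TAZ4SA and 0.81 without replicate 2 of TAZ-CAMTA1 or of YAP5SA. CREBBP was at 0.48 or 0.13 without replicate 1 or 2 of YAP-TFE3. The median feature differed by 0.24, in the same direction. With the peak names as groups EP300 turned to -0.53 (exact permutation p = 0.171), YEATS2 to -0.39 and CREBBP to -0.28, and KAT2A was at 0.03, where 10.4% of features passed. These are the values of the next comparison with the sign reversed. With a missing peak at the longest list's length plus 1, a choice made after the data had been seen, KAT2A differed by 1.09 and CREBBP by 0.83 under the labels, with exact permutation p-values of 0.400 and 0.257.

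The fusions were next set against the full-length partners, CAMTA1 and TFE3. Again 0 of 5 genes passed, with 10.4% of features passing. EP300 differed most, at 0.53 on the log2 scale, with ranks of 1480, 671, 1119 and 897 against 697, 632, 494 and 1057 (exact permutation p = 0.171, adjusted p = 0.480). The direction turned with the measure, to -0.11 by percent rank and to -0.31 by minus log2 fold enrichment, which is a higher fold in the fusions. Leaving out single libraries gave 0.34 to 0.73 at EP300. The other differences lay between -0.03 at KAT2A and 0.39 at YEATS2, and single libraries moved or turned them with no call changed. YEATS2 lay between -0.08 without replicate 2 of YAP-TFE3 and 0.71 without replicate 2 of TAZ-CAMTA1. ZZZ3 was at 0.57 without replicate 1 of TAZ-CAMTA1. Without replicate 1 of TFE3 or replicate 2 of CAMTA1, CREBBP was at -0.19 or 0.63 and KAT2A at -0.44 or 0.32. With missing peaks at the longest length, ZZZ3 differed by -0.71, YEATS2 by -0.65, CREBBP by -0.63 and KAT2A by -0.51, and the first 3 of these changed sign with how missing peaks were treated. In this contrast the median feature differed by 0.43. With the peak names as groups, ZZZ3 passed with a difference of 1.01 (exact permutation p = 0.0286, adjusted p = 0.867), the 1 of 5 genes to do so, and 3.3% of features passed. EP300, YEATS2, KAT2A and CREBBP then differed by 0.20, 0.14, -0.21 and -0.01.

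Finally the 12 libraries with a construct were set against the 2 labelled empty vector. No gene of the 5 passed, where 1.73% of features did, and the smallest p this design allows is 0.0110. KAT2A differed most, at -0.54 on the log2 scale, a stronger rank with a construct (exact permutation p = 0.418, adjusted p = 1.0). It shrank to -0.26 by percent rank, -0.0037 by minus log2 fold enrichment and -0.0095 with missing peaks at the longest length. Its 2 empty vector ranks, 30049 and 9913, lay far apart, and the difference was 0.26 without replicate 1 and -1.34 without replicate 2. ZZZ3, EP300, CREBBP and YEATS2 differed by 0.52, 0.39, 0.23 and -0.06, and with missing peaks at the longest length ZZZ3 was at 0.86, CREBBP at 0.91 and YEATS2 at 0.29. Single libraries moved these values too, with no call changed. ZZZ3 was at 0.18 or 0.86 without replicate 1 or 2 of the empty vector label, YEATS2 at 0.02 without replicate 2 of that label and -0.22 without replicate 2 of YAP-TFE3, and CREBBP at 0.15 without replicate 2 of CAMTA1 and 0.37 without replicate 1 of TFE3. Under the peak names, where the lists labelled TAZ4SA are the empty vector, KAT2A differed by 1.25 with the weaker rank in the constructs (exact permutation p = 0.0440, adjusted p = 0.470), the 1 of 5 genes to pass, against 9.35% of features. YEATS2, ZZZ3, EP300 and CREBBP then differed by 0.44, 0.41, 0.25 and 0.24.

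No feature of the 23325 reached an adjusted p of 0.05 in any of the 3 comparisons, by the exact permutation test used, although 5109, 2437 and 404 features had an unadjusted p of at most 0.05. The smallest exact permutation p is 0.0286 for 4 against 4 libraries and 0.0110 for 2 against 12. An adjusted p of 0.05 thus needs a large share of all features at that smallest p. The lack of such a feature is therefore not evidence of no change. The first 2 comparisons share the fusion libraries and are not independent of each other.

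Agreement of replicates was tested for each gene over all 135135 ways of pairing the 14 libraries. ZZZ3 came closest, with a mean difference in log2 rank of 0.53 within labels against 0.80 over all pairings (exact one-sided permutation p = 0.0546, not adjusted), and labels took up 78.8% of its variance. For YEATS2, KAT2A, EP300 and CREBBP the labels took up 30.3%, 34.5%, 45.1% and 36.1% of the variance, with exact one-sided permutation p-values of 0.931, 0.795, 0.476 and 0.590. The median feature had 59.8%. On the rank as a percent of the list, ZZZ3 passed (exact one-sided permutation p = 0.0219), and the mean difference within labels minus that over all pairings turned to -0.13 at YEATS2, -0.19 at KAT2A, -0.33 at EP300 and -0.24 at CREBBP. These 4 genes did not pass on either scale, with exact one-sided permutation p-values of 0.0898 to 0.279 by percent rank. On the log2 scale ZZZ3 passed without replicate 1 or without replicate 2 of TAZ-CAMTA1.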

How the data were processed

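H3K27ac ChIP-seq of SW872 cells was read from 14 deposited narrow peak lists, 1 per library. As the methods state, trimmed reads were mapped by the authors to GRCh37/hg19 with BWA-MEM, reads with several mapping places and greylisted regions were dropped, and MACS2 called the peaks. The methods describe pooled reads and a q limit of 0.1, whereas the lists used here are separate per library and hold no −log10 q below 1.30, a q of 0.05. In the deposited lists each peak has an interval, a summit, a score, a fold enrichment (a ratio over the local background at the summit), and the −log10 of the p-value and of the q-value, as the authors' peak caller gave them. The score was not used. Inputs (14 libraries) and read totals were not analysed here, so depth is known only through list length and the fragments at summits.

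Peaks were ranked by −log10 p within their list, ties sharing a rank, since values of separately called lists are not on 1 scale. The rank of the best peak at each promoter, as log2, was compared by exact permutation of libraries (70 splits of 4 against 4, 91 of 2 against 12), together with all regions merged at 1 bp that had a peak in at least 7 lists, and adjusted by Benjamini-Hochberg over these 23325 features. A pair of labels, 2 against 2, cannot give a p below 0.333 and was not tested. Summit fragments were solved from fold and −log10 p as MACS2 defines them, for peaks with a −log10 p under 250, and were taken as whole within 0.05. They cover counting error only. Samples were grouped by the labels. The members, the windows and the lists of motifs were chosen with earlier results of these data known. All 6 members are named, with the distal regions in at least 7 lists and, per comparison, the member that differed most or passed an unadjusted p of 0.05.

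Replicate numbers were not used as a block, since deviations of same-numbered libraries had a median correlation of 0.00898 over 21 pairs of labels, with 1 above 0.1. Alternatives were the rank as a percent of the list, fold enrichment, the 5721 strongest peaks of each list, limits on q of 0.01 or on −log10 q of 5, a 1 kb window, any overlap, features in all lists, each library left out, the replicate block and grouping by peak name. Other ATAC subunits, markers of the cell line and gene features at distal regions need an annotation of GRCh37 and were not analysed here. Promoter sequences came from RefSeq (GRCh38.p14), which had entries for 6 of 6 members. The YEATS2 entry starts 12442 bp from the 5′ end of the gene model and is not shown. Python 3.11.15, numpy 2.4.6, pandas 2.3.3, scipy 1.17.1 and matplotlib 3.10.9 were used, and the tests were tried on simulated data.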

Additional observations from a re-analysis of the deposited data

How the results depend on the processing

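Presence of EP300 at its promoter (14 lists) and of ZZZ3 (10 to 13 lists) was within 1.5 times of the count given under every filter tried. In the 5721 strongest peaks of each list, promoter peaks remained in 4 lists for YEATS2, 1 for KAT2A, 0 for KAT2B and 0 for CREBBP, and peaks within 50 kb in 5, 6, 0 and 0 lists. Distal regions fell to 1 for YEATS2, 2 for KAT2A and 0 for ZZZ3, KAT2B, EP300 and CREBBP. At a −log10 q of at least 5 they numbered 3 for YEATS2, 1 for ZZZ3, 5 for KAT2A, 5 for KAT2B, 3 for EP300 and 0 for CREBBP. Leaving out each library gave 5 to 8 regions for YEATS2, 10 to 12 for ZZZ3, 15 to 21 for KAT2A, 12 to 13 for KAT2B, 9 to 12 for EP300 and 2 to 4 for CREBBP, the last at 2 without either TAZ4SA library.

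In the fusion against TAZ4SA and YAP5SA comparison, 1 gene of 5 passed by percent rank (ZZZ3, 1.79) and 1 by minus log2 fold (ZZZ3, 1.05). The peak names gave -0.32 at ZZZ3, which is the comparison with CAMTA1 and TFE3 with its sign reversed. Leaving out each library gave 0 to 1 gene, and 1.07 to 1.54 at ZZZ3. Against CAMTA1 and TFE3, EP300 turned to -0.11 by percent rank and -0.31 by minus log2 fold, the peak names gave 1 gene (ZZZ3), and leaving out each library gave 0 genes and 0.34 to 0.73 at EP300. Against the empty vector, the peak names gave 1 gene (KAT2A, 1.25), and leaving out each library gave -1.34 to 0.26 at KAT2A. With 1 empty vector library left no gene could pass, and leaving out any other library changed no call.

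In the agreement of replicates, the observed minus the mean difference within pairs was reversed by percent rank at YEATS2 (-0.13), KAT2A (-0.19), EP300 (-0.33) and CREBBP (-0.24), while 1 gene passed, ZZZ3 (exact one-sided permutation p = 0.0219). Leaving out each library gave 0 to 1 gene, with -0.020 to 0.29 at YEATS2, -0.38 to -0.17 at ZZZ3, 0.04 to 0.30 at KAT2A, -0.12 to 0.072 at EP300 and -0.18 to 0.10 at CREBBP. ZZZ3 passed without replicate 1 or 2 of TAZ-CAMTA1. Causes of these changes were not tested.

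With the replicate block, 0 genes passed in each comparison, ZZZ3 stayed at 1.29 and no call changed. Permuting only among same-numbered libraries leaves too few splits for any gene to pass in the fusion comparisons. There the lack of a passing gene was fixed by the design and says nothing about stability. Same-numbered libraries share only a number. Among the results tried with a q of at most 0.01 (18), a 1 kb window (12) and any overlap (18), none changed direction or call. Sizes changed, however. ZZZ3 was at 1.97 with the 1 kb window, and KAT2A against the empty vector at -0.0095 with absent peaks at the longest length. The longest length also turned YEATS2, ZZZ3 and CREBBP against CAMTA1 and TFE3 and YEATS2 against the empty vector, with no call changed.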
